A study of Mus musculus with 2 samples.

Results

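The expression of 10 genes was followed through the differentiation of the embryonic mouse forebrain: the D cyclins Ccnd1, Ccnd2 and Ccnd3, the cyclin-dependent kinase (CDK) inhibitors Cdkn1a, Cdkn1b, Cdkn1c, Cdkn2c and Cdkn2d, and the antiproliferative genes Gadd45g and Btg2. They were chosen by symbol for their known roles, with earlier results of these data already known. Each of the 10 symbols was found once among the 28001 features of one single-cell library and once among the 32286 features of the other. Both libraries were labelled wild-type and C57BL/6J, and were captured as droplets and counted at the 3′ end of each transcript with unique molecular identifiers (UMIs). The septal explant library pooled septa of 8 embryos at stage E11.5 carrying PGKCre and a Rosa26YFP reporter with those of 4 embryos at stage E12.5 carrying Dbx1Cre and a Rosa26tdTomato reporter, from 2 litters of each. PGKCre acts in all cells and Dbx1Cre in Dbx1-expressing progenitors and their progeny, and no reporter was used to split the cells here. The telencephalic vesicle library pooled 3 embryos from 2 litters, of stage E12 per the labels and of E11.5 to E12 per the study's methods. The first was made with version 2 of the 10x Genomics 3′ kit and the second with version 3.1, so levels were read within each library and never compared between them. Each group was 1 library of pooled embryos, so there was no replicate, no test of a condition and no p-value. Intervals given below are 95% intervals that cover counting error only: exact Poisson for levels, exact conditional for ratios and exact Clopper-Pearson for shares of cells.

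D cyclins bind CDK4 and CDK6, and the active kinases phosphorylate the retinoblastoma protein, which releases E2F factors and lets a cell pass from G1 into S phase. The Cip/Kip proteins p21 (Cdkn1a), p27 (Cdkn1b) and p57 (Cdkn1c) bind cyclin-CDK complexes broadly, while the INK4 proteins p18 (Cdkn2c) and p19 (Cdkn2d) bind CDK4 and CDK6 alone. In the developing telencephalon, apical progenitors (APs) line the ventricle and divide, basal progenitors (BPs) arise from them in the pallium and usually divide once more into neurons, and neurons leave the cell cycle. Btg2 (Tis21) is a known label of progenitors about to make neurons, and Gadd45g is a stress and differentiation gene regulated by proneural factors and known to restrain growth.

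In the GRCm38/mm10 annotation (GENCODE vM21), Cdkn1a lies on chromosome 17 from 29090976 to 29100727 on the plus strand, Cdkn1c on chromosome 7 from 143458339 to 143461050 on the minus strand, Gadd45g on chromosome 13 from 51846678 to 51848468 on the plus strand and Btg2 on chromosome 1 from 134075170 to 134079120 on the minus strand. The D cyclin genes lie on chromosome 7 from 144929931 to 144939925 (Ccnd1, minus strand), chromosome 6 from 127125162 to 127152193 (Ccnd2, minus strand) and chromosome 17 from 47505051 to 47599691 (Ccnd3, plus strand). No member overlaps another gene of its own strand. Ccnd1, Ccnd2, Ccnd3, Cdkn1a and Cdkn1c each overlap at least 1 gene on the opposite strand, which counting by strand would keep apart. The promoters of Gadd45g and Btg2 are printed because these genes shared their highest bin of differentiation, bin 8, in both libraries, as given further on. Cdkn1a and Cdkn1b also shared theirs, bin 9, and their promoters are not printed. Each run holds 250 bases before and 50 after the RefSeq start (GRCm38.p6), 5′ to 3′ on the strand of the gene. In Gadd45g (chr13:51846425-51846724) the capitals mark CAGCTG, an E-box of the kind that proneural factors bind, which begins 55 bases before the start, and in Btg2 (chr1:134079106-134079405) they mark TGACGTCA, the cAMP response element, 166 bases before it.
Gadd45g: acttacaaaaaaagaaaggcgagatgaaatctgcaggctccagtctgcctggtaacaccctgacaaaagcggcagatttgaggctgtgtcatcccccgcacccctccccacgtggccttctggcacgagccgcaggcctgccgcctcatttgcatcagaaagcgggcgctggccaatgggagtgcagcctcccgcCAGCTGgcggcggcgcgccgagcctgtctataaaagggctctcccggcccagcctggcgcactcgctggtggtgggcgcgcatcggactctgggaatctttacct
Btg2: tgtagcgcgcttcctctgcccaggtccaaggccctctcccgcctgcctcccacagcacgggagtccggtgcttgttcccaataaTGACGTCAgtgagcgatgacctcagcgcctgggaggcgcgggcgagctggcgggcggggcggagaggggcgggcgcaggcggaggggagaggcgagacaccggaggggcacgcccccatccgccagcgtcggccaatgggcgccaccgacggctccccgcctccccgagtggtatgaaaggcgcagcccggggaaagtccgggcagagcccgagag
The letters CAGCTG, which read alike on both strands, occur in 16.3% of the 32851 RefSeq promoters of this length, CAGATG or its reverse complement CATCTG in 17.2%, and either E-box in 30.6%. Of the 10 promoters held for 7 members, 2 have one of them, that of Gadd45g and the first of Cdkn1a. TGACGTCA, searched after the Btg2 sequence was read, occurs in 1.79% of promoters. These matches describe the letters in the window and not binding.

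After removal of barcodes with an outlying mitochondrial share and of called doublets, 5384 cells with a median of 12868 UMIs remained in the septal explants and 11758 cells with a median of 9058 UMIs in the vesicle. The 2 libraries shared 1 cell barcode. Cells were clustered without the 10 genes and without genes of S and G2/M phase, and clusters were named from marker lists, so that every class below is "like" its name and no more. The septal explants gave 3370 AP, 294 BP, 246 subpallial differentiating and 1103 neuron-like cells, and the vesicle 6855, 616, 432 and 1878. A further 301 septal cells in 2 clusters and 986 vesicle cells in 3 shallow clusters stayed unnamed. Levels are given as UMIs of the gene per 1e6 UMIs (CPM) of the summed cells. They are relative levels: fewer cells of a type and less RNA per cell cannot be told apart within a pooled class. Since the counts are tags of the transcript end, levels of different genes were not ranked against each other.

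To follow the genes along differentiation, all neural cells of a library were ordered by the ratio of 11 neuronal to 8 AP genes, none of them a member, and cut into 10 bins of equal cell number, bin 1 being the most AP-like and bin 10 the most neuronal. Neural cells were all those outside blood, vessel and mesenchyme clusters, so unnamed cells were among them. They made up 291 of 1077 cells in bin 8 of the vesicle and 138 of 531 in bin 10 of the septal explants. Ccnd1, a D cyclin induced by growth signals, was not highest in the most AP-like cells. In the vesicle it went from 362 CPM (353 to 372) in bin 1 to 658 CPM (645 to 671) in bin 7 and then stood at 565, 215 and 48.8 CPM in bins 8, 9 and 10. The septal explants gave 343 CPM (331 to 356) in bin 1, 547 CPM (531 to 564) in bin 6 and 53.3 CPM (47.9 to 59.1) in bin 10. Its highest level was thus 13.5 times the lowest in the vesicle and 10.3 times in the septal explants. Region also varied over these bins. Hem-like cells, with the lowest Ccnd1 share of D cyclin UMIs among vesicle APs (13.4%), numbered 330 in bin 1 and 21 in bin 7. APs like those of the medial ganglionic eminence, with the highest (70.3%), went from 128 to 73. In the septal explants hem-like cells, at 116 CPM of Ccnd1, numbered 61 in bin 1 and 3 in bin 6. Pallial APs there, at 276 CPM, numbered 151 and 58. The part of region in the course of Ccnd1 was not tested. Ccnd2 followed another course, with a second high point past the middle of the order. Its levels in the vesicle were 704 CPM in bin 1, 442 CPM in bin 5, 574 CPM (558 to 590) in bin 8 and 456 CPM in bin 9. It was lowest there in bin 10, at 146 CPM (138 to 155). Bin 1 of the vesicle held 330 hem-like cells of 1077, a class with the highest Ccnd2 of all APs there. The septal explants had 533 CPM of Ccnd2 in bin 1, 558 CPM (540 to 576) in bin 7 and 142 CPM in bin 10. Ccnd3 was lower in the more neuronal bins, going from 105 CPM (100 to 110) in bin 1 to 19.8 CPM (16.9 to 23.1) in bin 10 of the vesicle and from 150 CPM in bin 6 to 33.9 CPM in bin 10 of the septal explants. As a proportion of its own bin 1 level, and not as a difference in CPM, Ccnd2 was the D cyclin highest in bin 9 of both libraries. In the septal explants bins 1 and 9 had 533 and 269 CPM of Ccnd2, 343 and 133 CPM of Ccnd1, and 143 and 51.8 CPM of Ccnd3.

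**Figure D1:**
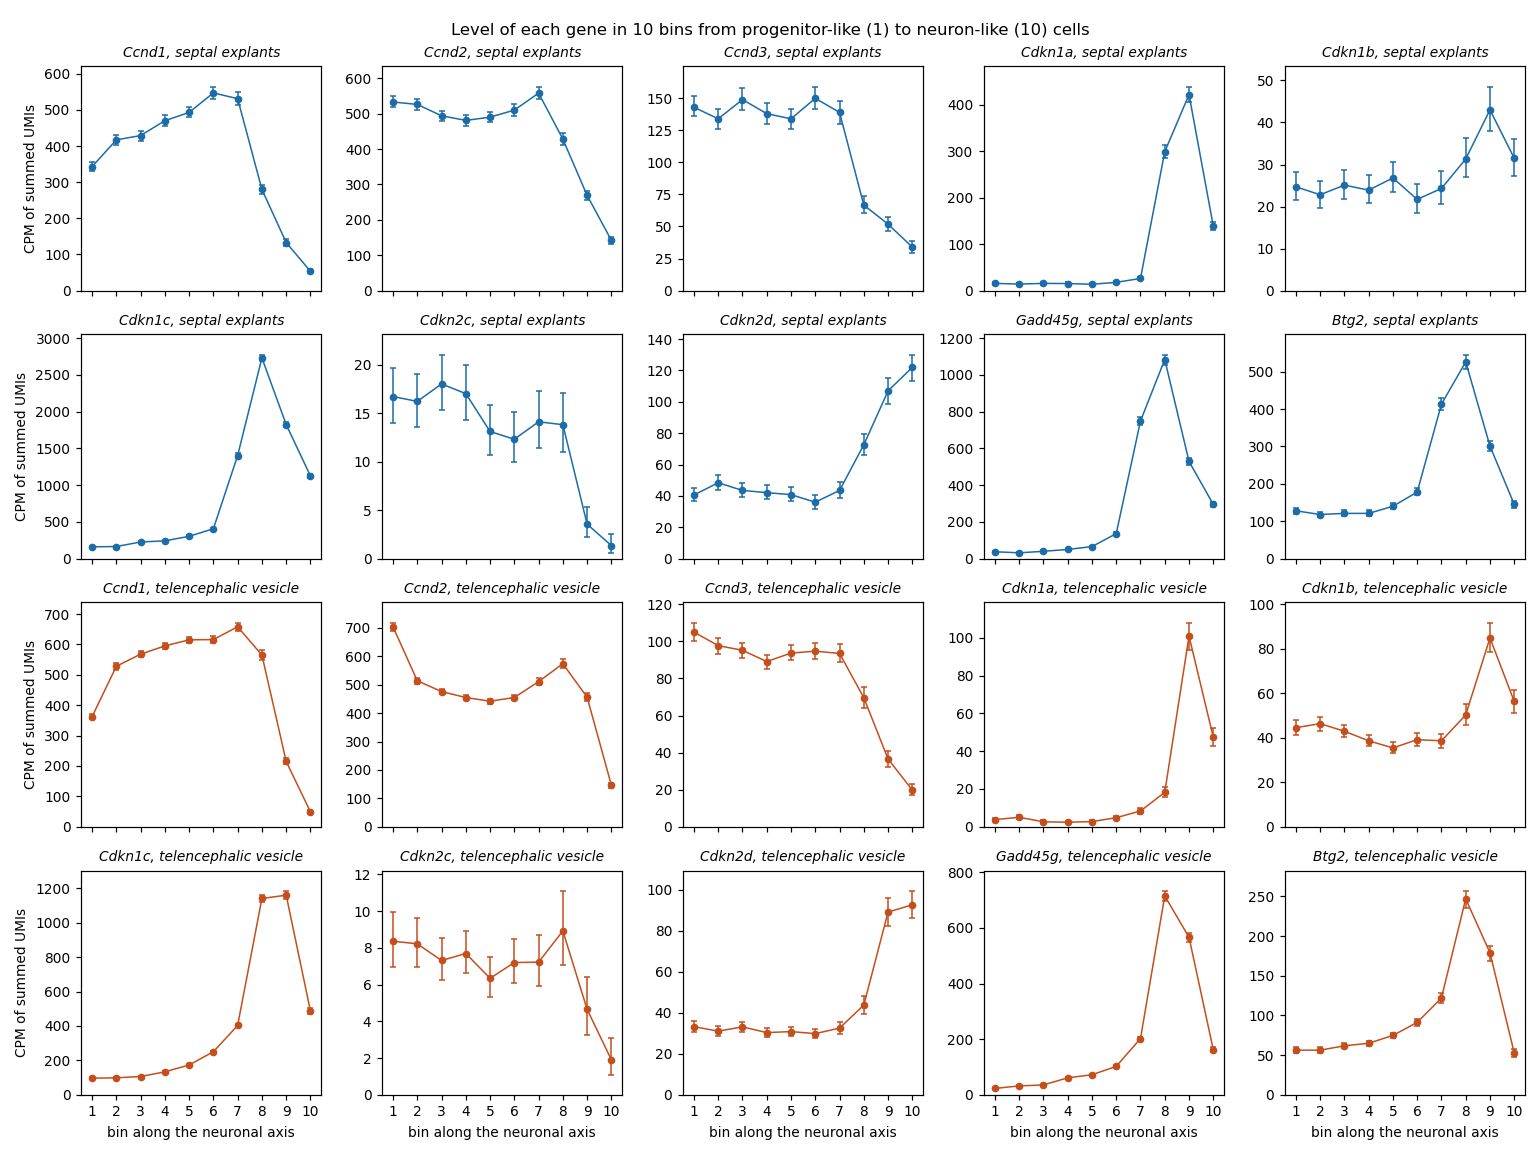
Levels of the 10 genes (CPM of summed UMIs, each panel with its own linear axis from 0) in 10 bins of neural cells ordered from most AP-like (1) to most neuronal (10), one panel per gene and library, with exact Poisson 95% intervals as bars. Gadd45g and Btg2 are highest in bin 8 of both libraries, Cdkn1a in bin 9, Cdkn2d in bin 10, and all 3 D cyclins are lowest in bin 10.

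The inhibitors did not reach their highest levels together. Cdkn1c, which encodes p57, was already several times its bin 1 level in bin 7. In the vesicle it went from 96.2 CPM (91.4 to 101) in bin 1 through 403 CPM in bin 7 to 1141 and 1160 CPM in bins 8 and 9, and was back at 487 CPM in bin 10. In the septal explants it went from 161 CPM (153 to 170) to 2731 CPM (2689 to 2774) in bin 8 and was 1125 CPM in bin 10. Cdkn1a, which encodes the p53 target p21, was highest in bin 9, at 101 CPM (93.7 to 108) in the vesicle and 422 CPM (406 to 439) in the septal explants. Cajal-Retzius-like cells had the highest Cdkn1a of all neurons, as given further on. They numbered 62, 93 and 51 in bins 8, 9 and 10 of the septal explants, and 37, 120 and 219 in those of the vesicle. The part of this class in the course of Cdkn1a was not tested. Cdkn1b, which encodes p27, varied least, between 35.4 and 84.8 CPM in the vesicle and between 21.7 and 43.0 CPM in the septal explants, with its highest level in bin 9 of both. Cdkn2d, which encodes p19, was highest in the most neuronal bin, at 92.6 CPM (86.2 to 99.4) in the vesicle and 122 CPM (113 to 130) in the septal explants. Its lowest level, in bin 6, was 29.8 and 36.0 CPM. Cdkn2c, which encodes p18, was highest in bin 8 of the vesicle (8.92 CPM, with an interval that overlaps those of all earlier bins) and bin 3 of the septal explants (18.0 CPM) and lowest in bin 10, at 1.90 CPM (1.09 to 3.09) and 1.35 CPM (0.620 to 2.57). Of the INK4 genes, then, Cdkn2d was highest and Cdkn2c lowest in the most neuronal cells.

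Gadd45g and Btg2 were transient. Gadd45g stood at 22.7 CPM (20.4 to 25.3) in bin 1 of the vesicle, 202 CPM in bin 7, 715 CPM (697 to 733) in bin 8 and 162 CPM in bin 10. The septal explants had 37.5 CPM in bin 1, 749 CPM in bin 7, 1083 CPM (1056 to 1109) in bin 8 and 295 CPM in bin 10. Btg2 shared the bin but had a higher start: 56.2 CPM in bin 1, 247 CPM (236 to 257) in bin 8 and 52.8 CPM in bin 10 of the vesicle, against 128, 526 (508 to 545) and 145 CPM in the septal explants. The highest level was 31.5 and 34.2 times the lowest for Gadd45g, and 4.68 and 4.46 times for Btg2. The lowest Gadd45g level of the vesicle, 22.7 CPM, was below that of erythroid-like cells given further on, so the 31.5 rests on a level at background. In the septal explants too, the share of APs with Gadd45g was not above that of the few erythroid-like cells, as given further on. The 34.2 has that limit. The 8 BP markers, which were not used to order the cells, summed to their highest level in bin 9 of the vesicle and bin 8 of the septal explants. When clusters of the pallial lineage alone were cut into 10 new bins, Gadd45g and Btg2 were highest in new bin 7 of both libraries. These new bins do not match those of all neural cells.

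BPs were then compared with all APs, the first step out of the ventricular zone, over every gene with at least 50 UMIs in the 2 classes. Beside the pooled APs of all regions, Gadd45g differed most of the 10. It was 921 CPM (897 to 945) in BPs and 57.7 CPM (56.4 to 59.0) in APs of the vesicle, 16.0 times higher (15.4 to 16.5), and 1452 against 74.7 CPM in the septal explants, 19.4 times higher (18.7 to 20.2). Cdkn1c was 1339 against 163 CPM in the vesicle, 8.23 times higher (8.02 to 8.44), and 1640 against 289 CPM in the septal explants, 5.68 times higher (5.51 to 5.85). Btg2 was 381 against 71.6 CPM, 5.31 times higher (5.08 to 5.56), and 616 against 142 CPM, 4.34 times higher (4.14 to 4.54). The intervals of these 3 genes in BPs and APs were far apart in each library, and the AP level of Gadd45g in the vesicle was close to the 48.8 CPM (41.1 to 57.6) of erythroid-like cells. Septal APs had Gadd45g in a share of cells not above that of erythroid-like cells, as given further on. The AP pool also mixed regions. In the vesicle, pallial and ventral pallium-like APs had 45.9 CPM of Cdkn1c and 49.4 CPM of Gadd45g. Beside these APs, the BPs of the vesicle differed more in Cdkn1c than in Gadd45g. Pallial APs of the septal explants had 135 and 96.5 CPM. How far region shapes the ratios of these genes was not tested. Cdkn1b was 2.1 times higher in BPs of the vesicle (1.91 to 2.30) and 1.62 times in those of the septal explants (1.36 to 1.92). Cdkn2c was 2.0 times higher (1.60 to 2.49) and 1.67 times (1.34 to 2.06), on only 89 and 98 BP UMIs.

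Past a ratio of 2, the vesicle BPs thus had 5 of the 10 genes higher, where 6.76% of 15680 genes were, and 1 lower, where 14.2% were. The 5 include Cdkn2c, which lay at the limit itself. Its ratio ranged from 1.90 to 2.18 under the alternatives, and 5 of 8 kept it on the same side. Its level in vesicle BPs, 14.7 CPM (11.8 to 18.1), was not above that of erythroid-like cells, as given further on. The septal BPs had 3 higher, where 5.61% of 12283 genes were, and 1 lower, where 16.0% were. The gene lower in both was Ccnd3, at 41.3 against 95.5 CPM in the vesicle (2.31-fold lower, 2.04 to 2.63) and 53.3 against 143 CPM in the septal explants (2.67-fold lower, 2.33 to 3.09). In BPs, Ccnd1 and Ccnd2 were within 2-fold of the level of all APs together, on its upper side in the vesicle and on its lower side in the septal explants. Ccnd1 was 680 against 566 CPM in the vesicle and 296 against 456 CPM in the septal explants, a ratio of 1.20 (1.16 to 1.24) and 0.650 (0.612 to 0.689). Ccnd2 had ratios of 1.33 (1.29 to 1.37) and 0.786 (0.746 to 0.827). The AP pool spans regions that differ in both genes. Pallial APs of the septal explants had 276 CPM of Ccnd1 (268 to 285), and BPs there, at 296 CPM (279 to 314), were not below them. Pallial and ventral pallium-like APs of the vesicle had 418 CPM (412 to 424). Ccnd2 in such APs was 682 CPM in the septal explants and 520 CPM in the vesicle, beside 396 and 661 CPM in BPs. The part of region in these ratios was not tested. Cdkn1a had few UMIs in BPs, 26 and 46, and ratios of 1.12 (0.726 to 1.66) and 0.776 (0.563 to 1.04), whose intervals include 1.

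**Figure D2:**
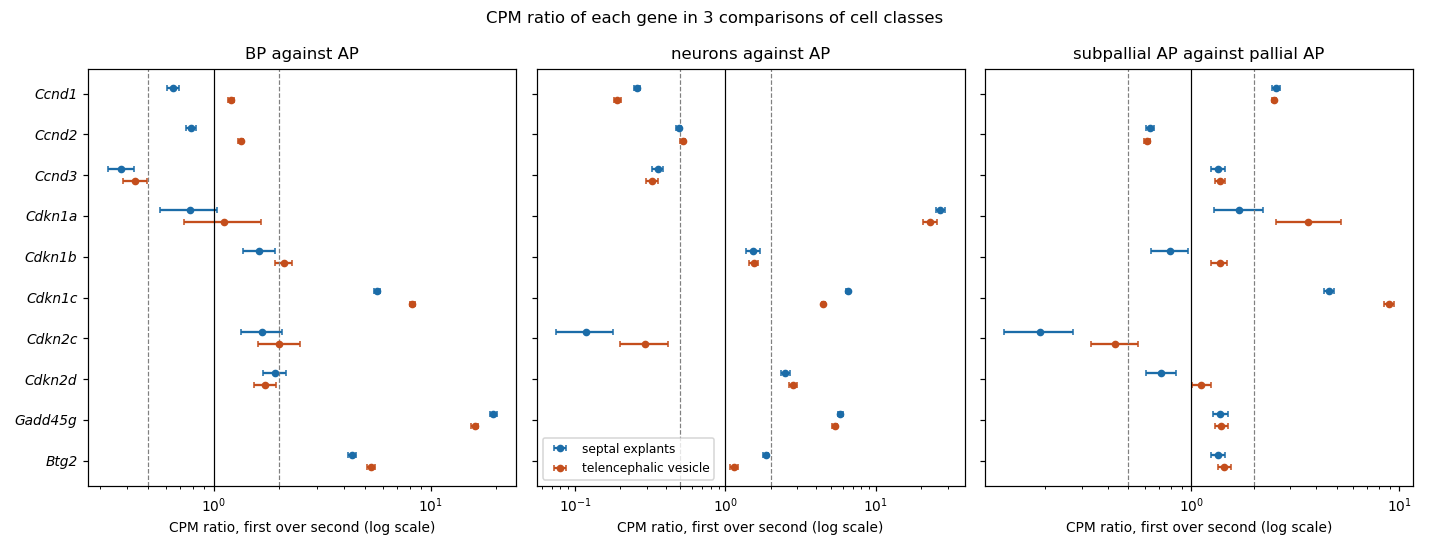
Ratio of CPM (log axis) for each of the 10 genes in BPs against APs, neurons against APs and subpallial against pallial APs, 1 point per library with its exact conditional 95% interval, and dashed lines at 2-fold in each direction. Gadd45g, Cdkn1c and Btg2 lie beyond the upper line in the first panel and Ccnd3 beyond the lower one in both libraries.

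Neurons were next compared with APs in the same way. The vesicle had 4 genes at least 2-fold higher in neurons, where 15.9% of 15982 genes were, and 3 lower, where 18.6% were, while the septal explants had 4 higher, where 17.0% of 12725 were, and 4 lower, where 16.2% were. The genes higher in both were Cdkn1a, Cdkn1c, Cdkn2d and Gadd45g. Without Cajal-Retzius-like cells, Cdkn1a was below 2-fold in the septal explants, as given further on. Cdkn1c was 728 against 163 CPM in the vesicle, a ratio of 4.47 (4.37 to 4.58), and 1870 against 289 CPM in the septal explants, a ratio of 6.48 (6.35 to 6.61). Cdkn2d had ratios of 2.81 (2.64 to 2.99) and 2.5 (2.34 to 2.68), and Gadd45g of 5.31 and 5.81. Lower in both were Ccnd1 (5.23-fold in the vesicle and 3.87-fold in the septal explants), Ccnd3 (3.08-fold and 2.83-fold) and Cdkn2c (3.43-fold, 2.42 to 5.05, and 8.44-fold, 5.58 to 13.4). Ccnd2 lay at the line itself, with 258 against 497 CPM in the vesicle (1.93-fold lower, 1.87 to 1.99) and 246 against 505 CPM in the septal explants (2.05-fold lower, 1.98 to 2.13). Of the 1878 vesicle neurons, 873 were GABAergic, a class that had 2380 CPM of S phase and 5741 CPM of G2/M genes. Pallial glutamatergic neurons there had 1074 and 2733 CPM, and APs 5607 and 11143 CPM. The part of this class in the pooled neuron levels was not tested. Btg2 was within 2-fold of the AP level, with ratios of 1.14 (1.07 to 1.21; 0.928 to 1.18 under the alternatives) in the vesicle and 1.85 (1.77 to 1.92) in the septal explants. The median log2 ratio of the 10 was 0.41 in the vesicle and 0.74 in the septal explants, beside -0.08 and 0.05 for all genes tested. For BPs against APs it was 0.89 and 0.72, beside -0.13 for all genes in both.

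The shares of cells with a UMI were read after every cell had been thinned to 1 depth, 3500 UMIs in the vesicle and 8000 in the septal explants, which left out 1145 and 511 shallower cells. The reference for free RNA was the erythroid-like class, 400 cells in the vesicle and 26 in the septal explants. In the vesicle 83.2% of BPs (80.0 to 86.1) had Gadd45g, against 11.7% of APs, a share below the 13.4% of erythroid-like cells (median 11145 and 5428 UMIs before thinning), so this share was not read as expression in the pooled APs. Before thinning these shares were 94.5%, 27.9% and 27.0%. Btg2 was seen in 69.5% of BPs, 21.6% of APs (20.6 to 22.6) and 16.8% of erythroid-like cells (13.1 to 21.1), and before thinning in 87.8%, 53.3% and 28.0%. Cdkn1c was found in 86.5% of BPs, 31.2% of APs and 5.32% of erythroid-like cells, and before thinning in 93.3%, 57.6% and 10.8%. Cdkn1a in APs, at 1.12%, equalled the erythroid-like share and was read as background. In the septal explants 98.5% of BPs had Gadd45g and the same share had Btg2, against 23.8% and 58.5% of APs and 30.8% and 34.6% of erythroid-like cells, whose small number leaves wide intervals (14.3 to 51.8 and 17.2 to 55.7). The Gadd45g share of septal APs was thus not read as expression in the pooled APs either. Unthinned, the BP shares were 99.3% and 99.7%.

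The mix of D cyclins changed with position in the forebrain. The share of Ccnd1 among all D cyclin UMIs is a proportion within 1 class, and it ran from 13.4% (12.9 to 13.9) in hem-like cells of the vesicle to 40.1% in pallial APs, 41.8% in ventral pallium-like (VP) APs, 60.8% in septal APs and 70.3% (69.7 to 70.8) in APs like those of the medial ganglionic eminence (MGE). The intervals of neighbours in this order did not overlap, those of pallial APs (39.5 to 40.7) and VP APs (41.0 to 42.6) lying closest. Ccnd2 made up 78.1% in hem-like cells, 50.6% in both pallial and VP APs and 21.5% in MGE APs of the vesicle, and 49.4% in hem-like cells and 63.6% in pallial APs of the septal explants. The septal explants gave 21.1% Ccnd1 (18.8 to 23.6) in hem-like cells, 25.8% in pallial APs, 39.3% in septal APs, 54.5% in MGE APs and 54.6% (53.4 to 55.7) in subpallial APs, the last pair with overlapping intervals. The order of the 4 classes that both libraries share was the same. Ccnd3 took 8.24% of D cyclin UMIs in APs of the vesicle and 12.9% in those of the septal explants, and only 2.99% and 7.15% in BPs. Erythroid-like cells stood apart, with Ccnd3 at 77.9% and 67.8%. Among neurons of the pallial glutamatergic kind, Ccnd2 made up 75.5% and 67.1% of what D cyclin RNA remained.

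**Figure D3:**
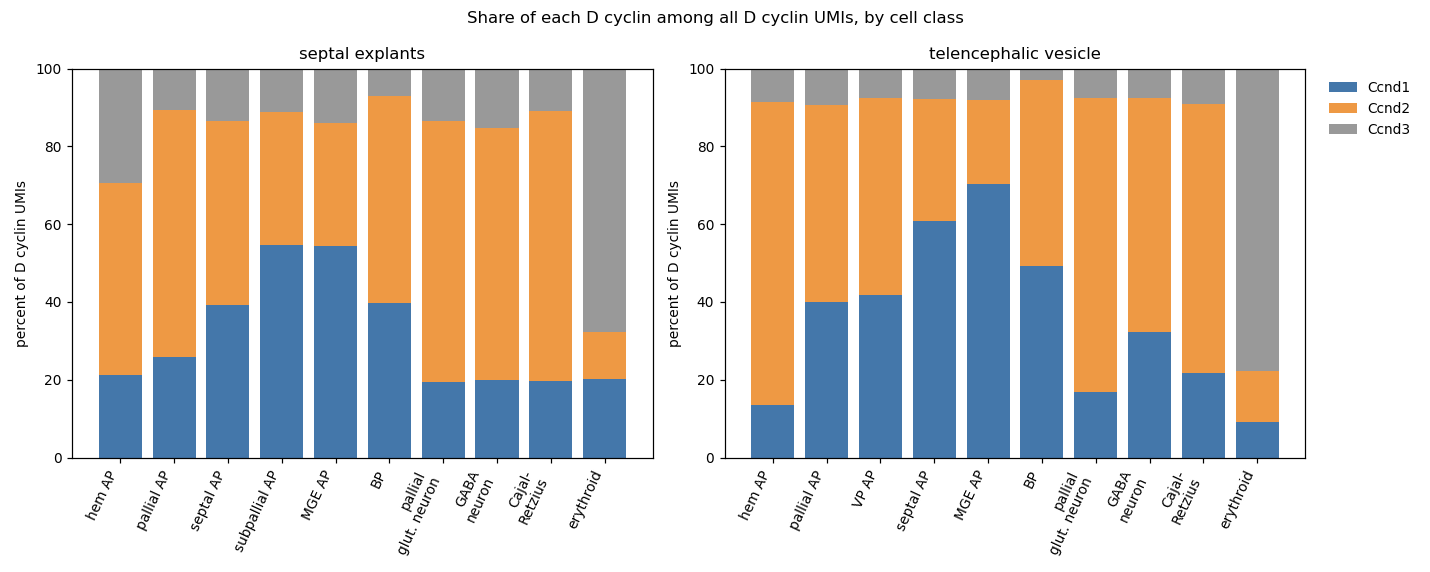
Percent of D cyclin UMIs from Ccnd1, Ccnd2 and Ccnd3 in each cell class, as bars stacked to 100, for both libraries. The Ccnd1 part is smallest among the AP classes in hem-like cells (13.4% and 21.1%) and largest in MGE and subpallial APs, up to 70.3% and 54.6%.

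Subpallial APs were set against pallial APs gene by gene. In the vesicle these were 1129 MGE-like cells of 1 cluster against 1783 pallial and VP cells, and in the septal explants 464 subpallial and MGE-like cells against 701 pallial ones. Ccnd1 was 1048 CPM (1032 to 1063) against 418 CPM (412 to 424) in the vesicle, a ratio of 2.51 (2.45 to 2.56), and 704 against 276 CPM in the septal explants, a ratio of 2.55 (2.44 to 2.66). Ccnd2 was 1.62-fold lower (1.58 to 1.67) and 1.57-fold lower (1.5 to 1.64). Cdkn1c stood at 409 against 45.9 CPM in the vesicle (8.92 times, 8.48 to 9.39) and 617 against 135 CPM in the septal explants (4.58 times, 4.33 to 4.84). Under the alternatives the Cdkn1c ratio ranged from 4.11 to 8.92 in the vesicle and from 4.43 to 9.69 in the septal explants. The p57 gene thus differed between these classes of cells that still had the AP signature. In the septal explants they also differed in place along the order of differentiation. Bins 6 and 7 had 407 and 1403 CPM of Cdkn1c over all their cells, BPs among them. They held 81 and 65 of 381 subpallial APs, and 58 and 41 of 701 pallial APs. In the vesicle these bins held 139 and 73 of 1129 MGE APs, and 162 and 129 of 999 pallial APs. Of the 784 VP APs there, they held 76 and 52. The part of region and of stage in the ratios was not tested. Cdkn2c went the other way, at 4.20 against 9.75 CPM (2.32-fold lower, 1.80 to 3.03) and 4.88 against 25.9 CPM (5.31-fold lower, 3.69 to 7.89). In the vesicle this ratio was no longer past 2-fold under 4 of the alternatives, where it reached 0.756. Within the pallial side of the vesicle it was higher in VP APs, which had 14.3 CPM (12.4 to 16.5) beside 7.60 CPM (6.62 to 8.69) in pallial APs. Erythroid-like cells of the vesicle had 21.1 CPM (16.2 to 27.1) of Cdkn2c, above both AP classes. Of 52 G2/M genes, 6 were at least 2-fold lower and none higher in subpallial APs of the septal explants, where 3.65% of all genes were lower. In the vesicle none of the 52 was past 2-fold. The part of cell cycle phase in the Cdkn2c ratios was not tested. Cdkn1a was 3.65 times higher (2.56 to 5.24) in the vesicle on 80 and 55 UMIs, and both levels, 4.8 and 1.32 CPM, were within a few CPM of the 2.42 CPM of erythroid-like cells. In all, 3 of the 10 were at least 2-fold higher in subpallial APs of the vesicle, where 5.26% of 13715 genes were, and 1 lower, where 4.56% were. In the septal explants 2 were higher, where 3.16% of 10525 were, and 1 lower, where 3.65% were.

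Cdkn1c was also read in later cells, beside the 1339 and 1640 CPM of BPs. Subpallial differentiating cells had 1470 CPM in the vesicle, and 5242 CPM (5130 to 5355) and 2007 CPM in the 2 such clusters of the septal explants. GABAergic neurons had 1351 and 693 CPM in the 2 clusters of the vesicle and 2886 CPM (2819 to 2955) in the septal explants, while pallial glutamatergic neurons had 303 CPM (288 to 319) in the vesicle and 500 CPM (478 to 522) in the septal explants. Septal glutamatergic neurons, a class named in the septal explants only, had 3164 CPM (3107 to 3221). Cdkn2c was at 0 UMIs in the 223 GABAergic neurons of the septal explants, for which the upper Poisson bound is 1.52 CPM, and after thinning 0 of 189 cells had a UMI of it, which allows up to 1.59% of cells with a UMI at that depth (3 counts of the total) and up to 1.93% by the exact interval.

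Cdkn1a was highest in Cajal-Retzius-like cells, the early-born Reelin neurons of the marginal zone, which were told apart by Trp73, Reln, Lhx1 and others and not by Cdkn1a. The 2 such clusters of the septal explants had 1906 CPM (1845 to 1967; 163 cells) and 1930 CPM (1823 to 2043; 54 cells), while the other named clusters lay between 2.62 and 77.9 CPM. In the vesicle one had 692 CPM (642 to 744; 122 cells) and the other 213 CPM (194 to 233; 260 cells), while no other named cluster was above the 87.2 CPM (69.3 to 108) of 28 endothelial-like cells. The vesicle cluster with the higher level was led by Ccno, Mcidas, Gmnc, Trp73 and Foxj1, several of them genes of multiciliated cells, and the smaller septal cluster by Ccno, Shisa8, Mcidas and Foxj1. After thinning, 97.5% (94.3 to 99.2) of septal and 42.6% (37.6 to 47.8) of vesicle Cajal-Retzius-like cells had the gene, against 3.85% and 1.12% of erythroid-like cells, and before thinning 98.6% and 47.4% against 7.69% and 1.5%. With these cells included, all neurons together exceeded APs by 26.8 times (24.9 to 28.9) in the septal explants, 414 against 15.4 CPM, and by 22.8 times (20.6 to 25.3) in the vesicle, 87.3 against 3.82 CPM. Without the Cajal-Retzius-like clusters, a comparison added after their levels were seen, the ratios were 1.89 (1.65 to 2.16) and 2.44 (1.97 to 3.00). Hem-like cells, from a region that makes Cajal-Retzius cells, had 47.3 CPM in the septal explants and 10.7 CPM in the vesicle, on 96 UMIs in 24 of 125 cells and 159 UMIs in 48 of 673 cells. After thinning the share of hem-like cells with the gene was 13.4% beside 15.3% of septal-like APs in the septal explants, and 1.80% beside 2.33% of septal-like APs in the vesicle.

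**Figure D4:**
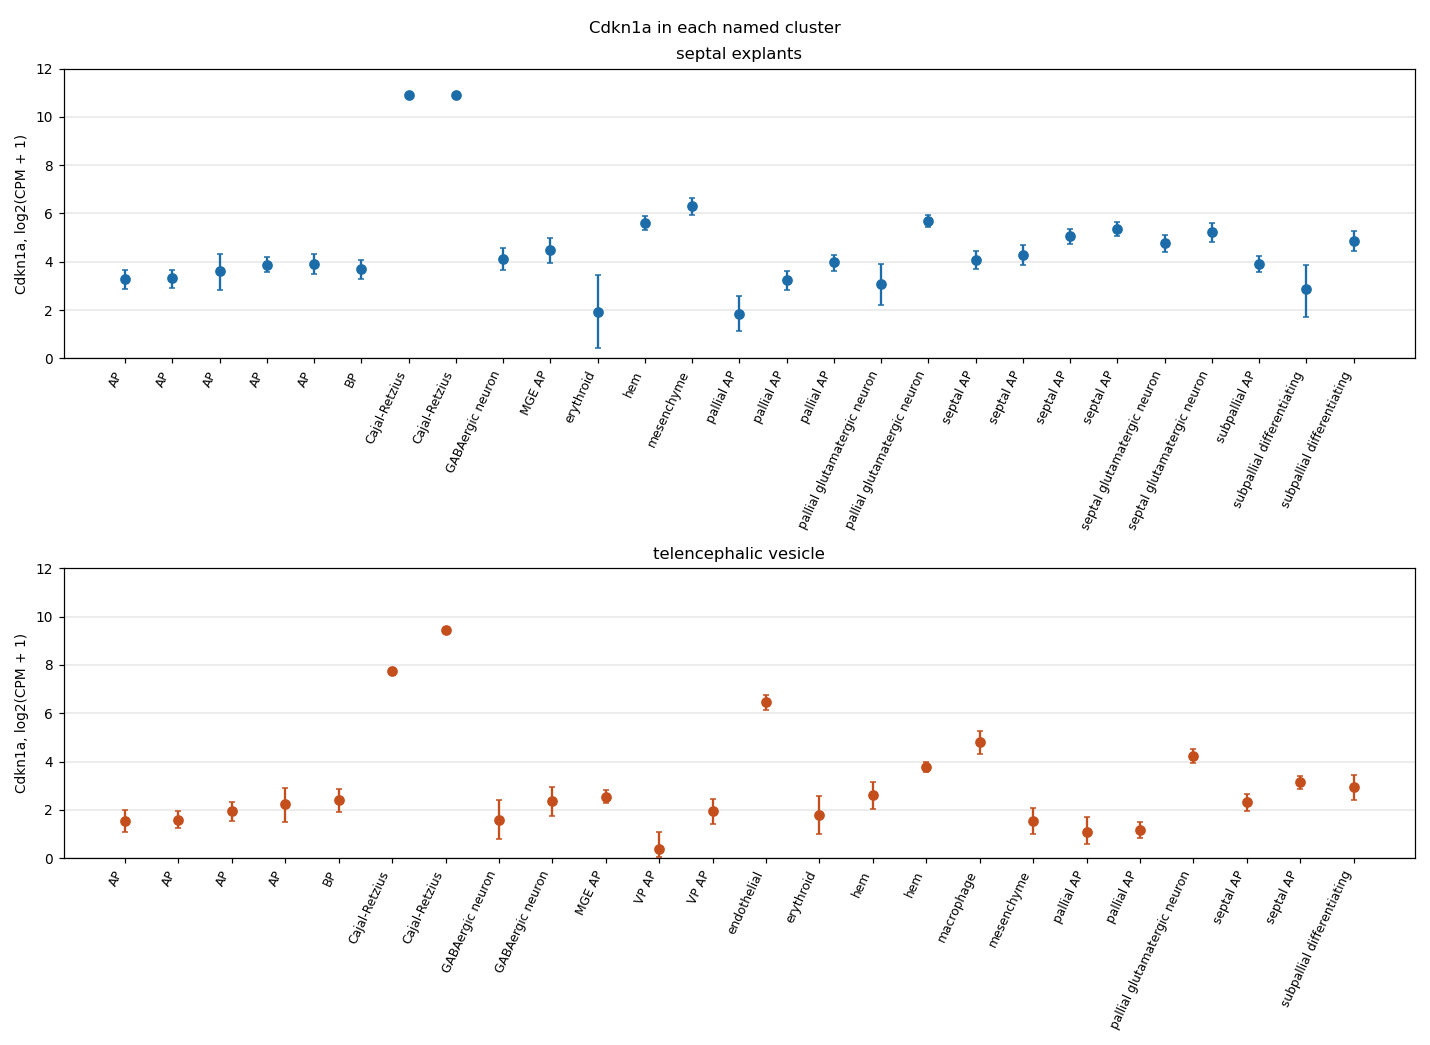
Cdkn1a level as log2(CPM + 1) in every named cluster of both libraries, 1 point per cluster with its exact Poisson 95% interval, grouped by class. The Cajal-Retzius-like clusters, at 1906 and 1930 CPM in the septal explants and 692 and 213 CPM in the vesicle, lie above all others.

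Genes known as p53 targets were read beside Cdkn1a, which itself was not in that list of 12. Their summed level was 1304 CPM (1260 to 1349) in septal Cajal-Retzius-like cells, against 567 to 612 CPM in the other neuron classes there, and 650 CPM (623 to 679) in those of the vesicle, against 465 and 498 CPM. Within the vesicle class, the 161 cells with a Cdkn1a UMI had 940 CPM (887 to 996) and the 217 without had 474 CPM (445 to 505). The class joined clusters of unlike Cdkn1a level, given above, whose part in this split was not tested. Immediate early genes, which are induced by cell handling, had 426 CPM in the cells with a Cdkn1a UMI and 540 CPM in those without. By class they had 591 CPM (562 to 622) in septal Cajal-Retzius-like cells, against 523 to 563 CPM in the other neuron classes there. Vesicle Cajal-Retzius-like cells had 498 CPM of them, against 463 and 590 CPM. The part of p53 targets or of cell handling in the Cdkn1a level was not tested.

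Within APs, cells were grouped by their shares of S phase and G2/M genes into S-high, G2/M-high and low ranges, 1908, 1907 and 421 cells in the vesicle and 859, 877 and 380 in the septal explants. These are ranges of a score, and 2062 and 703 AP cells lay near a limit while 2619 and 1254 fell in none. Low cells were also shallower, with a median of 7143 and 9720 UMIs. The ranges pooled APs of all regions and of all places along the order of differentiation. G2/M genes summed to 18783 CPM in MGE, 11743 CPM in pallial and 7848 CPM in subpallial APs of the septal explants. Among AP classes of the vesicle they lay between 10259 and 11846 CPM. The part of region and of stage in the levels by range was not tested. Cdkn2c was lowest in low cells: it was 7.18 CPM in S-high, 9.94 CPM in G2/M-high and 1.58 CPM (0.636 to 3.26) in low cells of the vesicle, and 16.0, 19.9 and 1.21 CPM (0.392 to 2.82) in the septal explants. The low ranges held only 7 and 5 of its UMIs. Cdkn2d and Cdkn1b were highest in the G2/M-high range. Their ratios of G2/M-high to S-high were 1.87 (1.71 to 2.06) and 1.75 (1.62 to 1.90) in the vesicle and 2.02 (1.79 to 2.27) and 1.76 (1.51 to 2.05) in the septal explants. Cdkn1c, Gadd45g and Btg2 were highest in low cells, as was Cdkn1a, which rested on 35 UMIs in that range of the vesicle (7.91 CPM). Cdkn1c had 404 CPM in low and 159 CPM in S-high cells of the vesicle, and 459 and 253 CPM in the septal explants. Gadd45g stood at 92.4 against 47.7 CPM and 176 against 60.2 CPM, and Btg2 at 110 against 69.0 CPM and 295 against 112 CPM. The 47.7 CPM of Gadd45g in the vesicle was at the level of erythroid-like cells given above. The share of vesicle APs with Cdkn1a was read as background above.

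The D cyclins varied less between these ranges. Ccnd1 was lower in low than in S-high cells, with a ratio of S-high to low of 1.45 (1.38 to 1.52) in the vesicle and 1.26 (1.19 to 1.33) in the septal explants, and hardly differed between G2/M-high and S-high (1.01, 0.993 to 1.04, and 1.04, 1.01 to 1.08). Ccnd2 had 491, 498 and 496 CPM in S-high, G2/M-high and low cells of the vesicle and 501, 470 and 638 CPM in the septal explants. The phasic cyclin Ccnb1 gives the scale, at 68.4 CPM in S-high and 331 CPM in G2/M-high cells of the vesicle, and 58.2 and 569 CPM in the septal explants. Ccnd3 was lower in G2/M-high than in S-high cells, with ratios of 0.831 (0.789 to 0.875) and 0.730 (0.686 to 0.777).

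**Figure D5:**
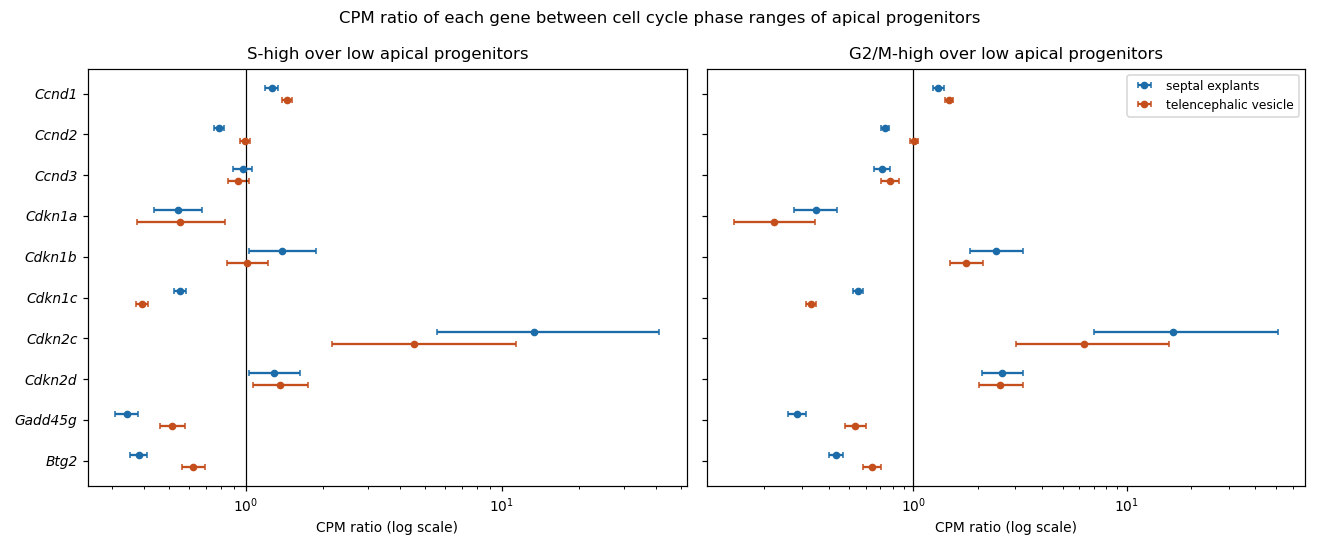
Ratio of CPM (log axis) in AP cells of the S-high and G2/M-high ranges against low cells for each of the 10 genes, 1 point per library with its exact conditional 95% interval. Cdkn2c lies highest, at 4.54 to 16.5, and Cdkn1c, Gadd45g, Btg2 and Cdkn1a lie below 1.

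Inside the BP class the genes were read cell by cell after thinning, to see whether growth-promoting and growth-restraining genes were found in the same cells. Of the 405 vesicle BPs with a Ccnd1 UMI, 90.1% (86.8 to 92.8) also had Cdkn1c, against 79.2% (73.0 to 84.6) of the 202 without. Ccnd2 showed no such gap: 86.5% (83.0 to 89.5) of vesicle BPs with it had Cdkn1c, against 86.4% (79.9 to 91.4) without. For Btg2 these shares were 70.4% (66.0 to 74.6) and 66.9% (58.9 to 74.2), and for Gadd45g 84.1% (80.4 to 87.4) and 80.5% (73.4 to 86.5). Ccnd1 was seen in 72.7% (68.2 to 76.9) of BPs with Btg2 and 53% (45.5 to 60.3) of those without. Btg2 was seen in 71.9% (67.7 to 75.8) of BPs with Gadd45g and 57.8% (47.7 to 67.6) of those without. Cdkn1b was seen in 25% (21.2 to 29.0) and 24.5% (16.5 to 34.0) of these same cells, a gap within the intervals. In septal BPs, Ccnd1 was found in 60.0% (53.6 to 66.2) of the 245 cells with Cdkn1c and 37.0% (19.4 to 57.6) of the 27 without, with overlapping intervals. The vesicle's subpallial differentiating cells ran the other way: 63.3% (57.3 to 69.0) of the 278 with Ccnd1 had Cdkn1c, against 76.2% (68.4 to 82.9) of the 143 without. Ccnd2 was found in septal BPs in 86.6% (80.3 to 91.5) of cells with Ccnd1 and 69.6% (60.3 to 77.8) of cells without. BPs with Ccnd1 had a higher summed level of S phase genes, 4200 against 3384 CPM in the vesicle and 3879 against 3658 CPM in the septal explants, and a lower level of G2/M genes, 10650 against 12063 CPM and 11036 against 13195 CPM. Cells of 1 library are not replicates, and these shares describe the libraries.

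Other genes of the D cyclin pathway were listed for context. In BPs against APs, 1 of 28 tested was at least 2-fold higher and 2 were lower in the vesicle (6.76% and 14.2% of all genes), and 3 and 4 in the septal explants (5.61% and 16.0%). Ccng2, an unconventional cyclin tied to cell cycle arrest, was higher in both (3.05 and 3.20 times), and Cdk6, a kinase partner of the D cyclins, was lower in both (3.50-fold and 4.99-fold), as was Mycn, a growth-promoting transcription factor (2.31-fold and 3.22-fold). Of 6 further genes of the Btg/Tob and Gadd45 families, Gadd45a was higher in BPs of both libraries, at 116 against 10.9 CPM in the vesicle (10.7 times, 9.74 to 11.7) and 188 against 22.9 CPM in the septal explants (8.19 times, 7.46 to 8.99). Btg1 was 2.16 times higher in the vesicle, and Gadd45b 5.53-fold lower in the septal explants. In neurons against APs, 17 of 28 pathway genes were lower in the vesicle and 18 in the septal explants, where 18.6% and 16.2% of all genes were, led by E2f8 (8.48-fold and 16.3-fold), while 2 and 4 were higher, among them Ccng2 (3.40 and 3.42 times) and Myc (2.28 and 5.42 times). All 42 S phase genes were at least 2-fold lower in vesicle neurons and 41 of 42 in septal neurons, and 46 and 47 of 52 G2/M genes. BPs had none of the G2/M genes past 2-fold in either library, and 4 and 16 S phase genes lower. Between subpallial and pallial APs, Tfdp2, a partner of E2F factors, was the only pathway gene past 2-fold in either library (2.62 and 3.40 times higher). Immediate early genes moved with that comparison in the vesicle, where 5 of 9 were higher in the MGE-like cluster, led by Fosb (16.4 times) and Fos (7.33 times), and in the septal explants 1 of 8, Fosb, was lower (3.09-fold). Their part in the regional values of Btg2 and Cdkn1a, which are themselves inducible, was not tested.

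The genes whose log2(CPM + 1) followed that of a member most closely over the clusters, 29 in the septal explants and 27 in the vesicle, are given as a description, since clusters of 1 library share its depth and cells. For Gadd45g these were Lzts1, Srrm4 and Rasgef1b in the septal explants (Pearson r 0.92, 0.91 and 0.90) and Dll3, Plk3 and St18 in the vesicle (0.91, 0.90 and 0.87). Btg2 was followed most closely by Spsb4, Hes6 and Chd7 (0.88, 0.87 and 0.83) and by Dbx1, Cbfa2t2 and Pkib (0.78, 0.77 and 0.77). Cdkn1a was followed by Trp73, Ccng1 and Mcidas (0.92, 0.90 and 0.86) and by Cav2, Jag2 and Fuca1 (0.85, 0.78 and 0.77). Cdkn2c was followed by the mitotic genes Incenp, Aurkb and Cdca5 in the septal explants (0.87, 0.87 and 0.86), with Hist1h2ac and Aurka leading in the vesicle (0.80 and 0.79). Ccnd3 had Gypc, a red cell membrane gene, as its closest in both (0.96 and 0.91). Ccnd1 was closest to Ahcy and Prss23 (0.90 each) in one and to Mfsd2a (0.89) in the other, and Cdkn1c to Rgs16 (0.86) and Shf (0.81). The closest genes of Ccnd2 were Gm8186 (0.86) and Pnrc2 (0.91), those of Cdkn1b Gapvd1 (0.73) and Ttbk2 (0.91), and those of Cdkn2d Ccng2 (0.81) and Isoc2b (0.87).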

How the data were processed

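The 2 single-cell RNA-seq libraries were analysed, each on its own. The authors deposited UMI counts per gene and barcode, not normalized, made per the labels with Cell Ranger 2.1.1 (septal explants, mm10 with reporter sequences added) and Cell Ranger 7.1.0 (telencephalic vesicle, mm10). Whether intronic reads were counted in the vesicle is not given in the sources used here, and would raise the counts of unspliced RNA.

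Barcodes with a mitochondrial share over 3 median absolute deviations from the median were removed (383 of 5827 septal, 1812 of 14283 vesicle), then doublets called by Scrublet (60 and 713). Totals before filtering were 83103280 and 194821794 UMIs. Cells were clustered in scanpy 1.11.5 under Python 3.11.15 (counts scaled to 10000, 2000 variable genes, 30 components, 15 neighbours, Leiden resolution 1.5). The 10 genes and the S and G2/M lists were left out. Clusters were named from fixed marker lists, needing at least 3 detected markers, by a scoring rule that was revised after the clusters had been seen. Summed counts gave CPM. Genes with at least 50 UMIs over both classes entered a comparison, and a ratio of 2 was the limit used for counting genes. Scripts were tested on simulated data.

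The genes named are the 10 members, the listed genes with the 2 largest ratios past 2-fold per direction, and for each member the 3 genes most correlated over clusters with at least 200 UMIs. The members and lists were chosen with earlier results of these data known. With 1 library per group no test was run, and intervals cover counting error only. Alternatives covered doublets, the mitochondrial filter, clustering, minimum counts, the fold, bins, thinning and phase limits.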

Additional observations from a re-analysis of the deposited data

Results flagged for a closer look

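Several ratios lay on opposite sides of 1 in the 2 libraries with intervals that exclude 1, and in none was the difference between libraries tested, since each is a single library and they differ in kit, stage and tissue. In BPs against APs of all regions, the ratio of Ccnd1 was 0.650 in the septal explants and 1.20 in the vesicle, and that of Ccnd2 was 0.786 and 1.33. Beside pallial APs alone, at 276 CPM, the septal BPs were not lower in Ccnd1, at 296 CPM. In Ccnd2 they were lower than those APs, at 396 against 682 CPM. The vesicle BPs were higher in Ccnd2 than pallial and VP APs there, at 661 against 520 CPM. The part of region in these ratios was not tested. In subpallial against pallial APs, the ratio of Cdkn1b was 0.792 in the septal explants and 1.37 in the vesicle, and that of Cdkn2d was 0.718 and 1.12. Under the alternatives both Ccnd1 (septal explants 0.650 to 0.887, vesicle 1.1 to 1.21) and Ccnd2 (0.749 to 0.827 and 1.28 to 1.43) stayed on their sides of 1, while the septal ratios of Cdkn1b (0.551 to 1.13) and Cdkn2d (0.421 to 1.51) crossed it.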

How the results depend on the processing

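No paired analysis was possible because each group was 1 library. Of 112 recounts of the genes past the limit under the alternatives, 103 were within 1.5 times the count reported and 9 were not, and no ratio past 2-fold changed direction. Class ratios within 2-fold that crossed 1 were those of Cdkn1b and Cdkn2d in septal subpallial APs, Cdkn1a in BPs (septal explants 0.719 to 1.24, vesicle 0.799 to 1.27) and Btg2 in vesicle neurons (0.928 to 1.18), and some phase ratios near 1 did too. Values left their counting interval in 237 of 500 class ratios, 12 of 60 phase ratios, 437 of 980 class levels, 261 of 280 shares and 12 of 12 co-detection shares. In the vesicle the 1 gene lower in subpallial APs, Cdkn2c, became 0 with all deposited barcodes kept, at a Leiden resolution of 2.5, with phase genes kept in clustering and with another random seed. The ratio of Cdkn2c there ranged from 0.431 to 0.756. In the septal explants the same count became 2 with all barcodes kept, by the addition of Cdkn2d. With a fold of 1.5 the septal BPs had 6 genes higher and 2 lower, and the count of lower genes in subpallial APs was 2 in both libraries. Ratios that crossed 2-fold under some alternative were those of Ccnd2 in neurons (septal explants 0.405 to 0.533, vesicle 0.452 to 0.614), Cdkn2c in vesicle BPs (1.90 to 2.18), Ccnd1 in subpallial APs of the vesicle (1.84 to 2.51) and Gadd45g (1.38 to 3.38) and Cdkn2d (0.421 to 1.51) in subpallial APs of the septal explants. The causes were not tested. The bin with the highest level was kept in 74 of 100 recounts. Neurons without Cajal-Retzius-like clusters and the order without unnamed clusters were alternatives chosen after seeing the data. Depth limits Cdkn2c and Cdkn1a most, whose levels rest on few UMIs outside the classes named.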
